A study of Mus musculus with 6 samples.

Results

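The GIMAP genes encode GTPases of the immunity-associated protein family, and 8 of them (Gimap1, Gimap3, Gimap4, Gimap5, Gimap6, Gimap7, Gimap8 and Gimap9) were followed here by symbol and by Ensembl ID. They are 8 of the 37187 rows of the count table, and all 8 were among the 13626 genes that passed the filter on low counts. The libraries are bulk RNA-seq of Tregs (regulatory T cells, a suppressive CD4 lineage), sorted as CD4+CD25+GITR+ cells out of lymph nodes that drained a tumour. The tumour, in both groups, was the mouse melanoma line B16.F10, given as 300000 cells under the skin, and the nodes were collected at day 14. The WT group (replicates 1 to 3) came from C57BL6 mice and the KO group (replicates 4 to 6) from il33-/- mice on that background, which lack the alarmin cytokine IL-33 in every tissue. The sources used here do not give age or how many mice stand behind a library, so each p-value measures only how these libraries spread, which may be technical.

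GIMAP proteins share a GTP-binding domain of the AIG1 type and sit on intracellular membranes or in the cytosol of lymphocytes, where they bear on survival and homeostasis. Loss of Gimap5 in the mouse and in the BB rat leaves the animals short of peripheral T cells, and loss of Gimap1 removes mature T and B cells. Gimap1, Gimap3 and Gimap5 carry a hydrophobic tail that anchors them in membranes, while Gimap6 is known for binding an autophagy protein of the LC3 family. Gimap8 holds several GTP-binding domains in tandem.

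The 8 genes lie side by side in a cluster of 123.6 kb on chromosome 6 of GRCm38, from 48647234 to 48770851. In order they are Gimap8, Gimap9, Gimap4, Gimap6, Gimap7, Gimap1, Gimap5 and Gimap3, with Gimap6 and Gimap3 on the minus strand and the others on the plus strand. The sequences just upstream of the start sites of Gimap6, Gimap4 and Gimap1 are shown because these were the members whose WT and KO ranges did not overlap. They are RefSeq promoters on GRCm38.p6, written 5′ to 3′ on the strand of the gene and ended before the first annotated exon base. Capitals mark CGGAAG (an ETS-type core) and TGTGGT (a RUNX-type core) on either strand, which read CTTCCG and ACCACA where the core lies on the opposite strand.
Gimap6, chr6:48708245-48708494, minus strand: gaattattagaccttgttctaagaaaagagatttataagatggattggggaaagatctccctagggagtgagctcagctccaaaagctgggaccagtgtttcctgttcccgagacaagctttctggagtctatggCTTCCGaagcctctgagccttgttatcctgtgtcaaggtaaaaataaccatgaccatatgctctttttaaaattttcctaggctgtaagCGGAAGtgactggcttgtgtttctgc
Gimap4, chr6:48684328-48684548, plus strand: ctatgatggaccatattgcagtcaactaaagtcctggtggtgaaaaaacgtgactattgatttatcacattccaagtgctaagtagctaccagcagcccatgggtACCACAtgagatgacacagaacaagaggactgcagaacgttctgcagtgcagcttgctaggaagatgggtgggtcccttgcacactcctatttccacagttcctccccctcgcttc
Gimap1, chr6:48738797-48739046, plus strand: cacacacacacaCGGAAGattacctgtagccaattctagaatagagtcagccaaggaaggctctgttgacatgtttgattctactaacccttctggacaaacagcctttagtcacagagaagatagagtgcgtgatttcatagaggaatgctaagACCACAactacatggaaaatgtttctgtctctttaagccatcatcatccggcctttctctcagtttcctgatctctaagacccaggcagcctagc
The ETS-type core stood in 250 upstream bases of 3 of the 8 members (Gimap1, Gimap6 and Gimap8) and in 13.6% of 32851 promoters of that length. Gimap8 has 2 start sites in the table and was searched in both windows, 9 windows for the 8 members, and its match came from the downstream window alone, inside annotated exon sequence. The RUNX-type core stood in 3 of 8 (Gimap1, Gimap4 and Gimap7) and in 14.0% of promoters. The FOXO-type heptamer GTAAACA was found at Gimap3 alone among the members, and in 3.17% of promoters. The TCF-type hexamer CTTTGA was in none of the members' windows and in 13.8% of promoters, and CCGGAAGT was in none of them and in 2.88%. The short cores CACCC and GGAAA were in 5 and 7 of the 8 members and in 52.0% and 55.6% of promoters. GGAAA and CGGAAG share 4 letters and can overlap. These matches describe letters in a window and were tied to no measurement of binding.

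Total counts per library ran from 18071928 to 21165063. The sort was checked on Treg and T cell transcripts: Foxp3 lay between 719 and 857 CPM (counts scaled to library size with trimmed-mean factors) and Cd4 between 547 and 625 CPM in the 6 libraries. The 7 Treg markers summed to 3664 to 4243 CPM in WT and 4407 to 4718 CPM in KO. Of the 7 markers 2 passed the test between KO and WT, both higher in KO, against 3.68% of all genes called higher. Ctla4, an inhibitory receptor gene on this list, had 579 to 724 CPM in WT and 909 to 1002 CPM in KO. Foxp3, Cd4 and Il2ra were among the listed markers whose ranges overlapped between the groups. The 19 general T lineage genes summed to 7934 to 8511 CPM in WT and 8618 to 9158 CPM in KO. Il33 had 0 to 9 counts per library in both groups and could not check the labels. Transcripts of 18 measured B cell markers summed to 2315 to 3888 CPM in WT and 1397 to 1745 CPM in KO, with WT replicate 2 the lowest in WT. A single marker, Cd72, gave 558 CPM of the sum in WT replicate 2, against 86.1 and 73.0 CPM in WT replicates 1 and 3. Summed CD8 T and NK cell markers were 54.0 to 59.5 CPM in WT and 37.8 to 48.7 CPM in KO, with none of the 7 at 0 in every library. The 12 myeloid markers summed to 52.4 to 72.7 CPM in WT and 49.1 to 71.99 CPM in KO, again with none at 0 throughout. Of the 10 myeloid markers tested 1 rose and 1 fell, against 3.68% and 2.83% of all genes. Of 10 stromal and endothelial markers 6 stayed under 1 CPM everywhere, among them the endothelial cadherin gene Cdh5. That list summed to 213 to 230.5 CPM in WT and 247 to 258 CPM in KO, and Pecam1, which lymphocytes also express, made up 206 to 253 CPM of it. Of its 4 tested genes 1 rose and 0 fell. In such bulk samples fewer cells of a type and less RNA per cell cannot be told apart.

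GIMAP transcripts were abundant in these cells, and the ranges of their summed level overlapped between the groups. Together they took 0.298% to 0.308% of all counts in WT and 0.287% to 0.325% in KO. The sum was 3099, 2990.5 and 2985 CPM in WT replicates 1, 2 and 3 and 3029.7, 2855 and 3246 CPM in KO replicates 4, 5 and 6. The KO libraries lay on both sides of the WT libraries, and the ratio of the group means was 1.01. Each library gave between 1211 and 17435 counts per member.

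**Figure D1:**
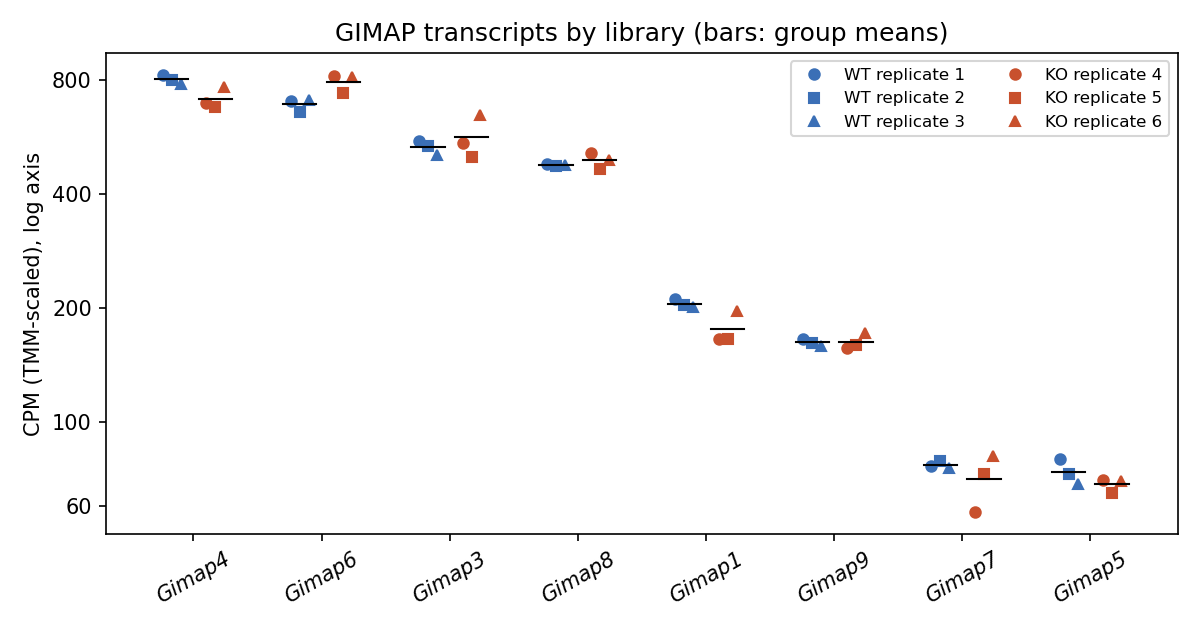
CPM of each GIMAP gene (log axis) in the 3 WT and 3 KO libraries, with bars at the group means. Gimap4 and Gimap1 were lower in all 3 KO libraries than in any WT library, Gimap6 was higher, and the other 5 genes overlapped between the groups.

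Levels of different genes were compared per length, on the deposited FPKM (fragment values scaled to gene length and library size). Gimap3 stood highest at 585 ± 24.2 FPKM in WT and 621 ± 80.1 FPKM in KO (SD, n = 3 each), rank 36 among the 37187 rows by mean FPKM. Gimap4 followed at 437 ± 11.8 and 387 ± 23.6 FPKM, Gimap6 at 197 ± 7.40 and 225.5 ± 12.3 FPKM, and Gimap8 at 130.5 ± 0.578 and 134 ± 6.54 FPKM. Gimap9 had 98.4 ± 2.14 and 98.4 ± 4.28 FPKM, Gimap1 96.4 ± 2.57 and 82.4 ± 7.93, Gimap7 60.3 ± 1.38 and 55.3 ± 9.19, and Gimap5 31.2 ± 2.42 and 28.9 ± 1.18. Even Gimap5, the lowest, lay above 80.5% of the 11730 rows with a mean of at least 1 FPKM, whose median was 10.6 FPKM. This order was the same in all 6 libraries. The ranges of neighbours in it were apart in both groups except for Gimap9 and Gimap1, whose WT ranges overlapped.

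The top of that order rested on the gene length used. When the normalized counts were divided by the GENCODE M21 exon length instead, Gimap4 came first, at 8828 ± 239 normalized counts per kb in WT and 7815 ± 477 in KO. Gimap3 then had 4156 ± 172 in WT and 4413 ± 569 in KO, and Gimap6 3981 ± 149.5 and 4559 ± 248. On this scale the ranges of Gimap3 and Gimap6 overlapped in both groups. From Gimap8 down to Gimap5 the order stayed the same. This length scale was chosen after seeing the data.

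**Figure D2:**
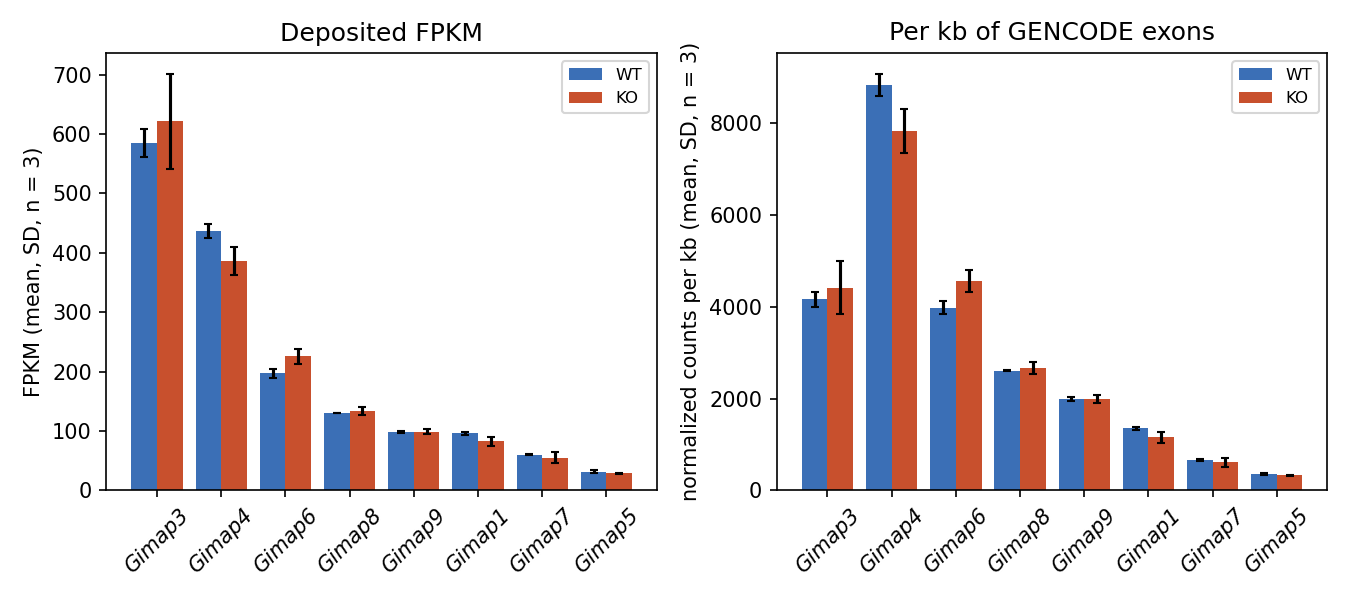
Mean level per length of each GIMAP gene in WT and KO, as deposited FPKM (left) and as normalized counts per kb of GENCODE exons (right), with error bars of 1 SD over 3 libraries. Gimap3 is highest on the left at 585 FPKM in WT, and Gimap4 is highest on the right at 8828 normalized counts per kb in WT.

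None of the 8 GIMAP genes passed the test between KO and WT. The test was edgeR's quasi-likelihood test across all 13626 genes, Benjamini-Hochberg adjusted, at a threshold of 0.05, and it called 6.50% of all genes (501 higher and 385 lower in KO). At an unadjusted p under 0.05 there were 3 members (Gimap1, Gimap4 and Gimap6), against 21.8% of all genes tested. The median log2 fold change over the 8 was -0.05, against 0.00026 over all genes, and single members ran from -0.22 to 0.20. The CPM ranges of WT and KO were apart for 3 of the 8, with 26.3% of all genes in that state, so this count is near the background for so few genes. The 95% intervals held the fold change of every member between 0.774 and 1.25.

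Among the membrane-anchored members, Gimap1, which mature lymphocytes need to survive, had the most negative log2 fold change. It had 212, 203 and 202 CPM in WT replicates 1, 2 and 3 and 166, 166 and 197 CPM in KO replicates 4, 5 and 6. All KO libraries lay below all WT libraries, with KO replicate 6 just under the lowest of them. The log2 fold change of Gimap1 was -0.22 (SE 0.07, 95% interval -0.37 to -0.08), and the edgeR adjusted p was 0.0730. Leaving out KO replicate 6, the KO library nearest to WT, gave -0.31 and an edgeR adjusted p of 0.0161 (2.91% of all genes called). Dropping that library widens the gap between the groups. Dropping any other single library gave adjusted p-values from 0.0876 to 0.254. DESeq2 on all libraries gave an adjusted p of 0.0314. Over the 17 alternatives this p ran from 0.00774 to 0.539 and the direction held.

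Gimap3, an anchored protein reported to bind members of the BCL-2 family, had its highest and lowest values both in KO. It had 551, 535 and 509 CPM in WT and 548, 502 and 649 CPM in KO. KO replicate 6 alone lay above the WT range, and KO replicate 5 below it. Its log2 fold change was 0.09 (SE 0.08, 95% interval -0.10 to 0.28, edgeR adjusted p = 0.602), and without KO replicate 6 it was -0.017. Gimap5, the anchored member whose loss causes lymphopenia, had 79.7, 72.7 and 68.5 CPM in WT and 70.1, 64.9 and 69.9 CPM in KO. The groups overlapped, and its log2 fold change was -0.11 (SE 0.07, 95% interval -0.25 to 0.04, edgeR adjusted p = 0.389).

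Among the members without such a tail, Gimap6 was the one with the higher level in every KO library. It had 705, 659.7 and 708 CPM in WT and 819.8, 742 and 818.5 CPM in KO replicates 4, 5 and 6. Its log2 fold change was 0.20 (SE 0.06, 95% interval 0.08 to 0.32), a fold of 1.15, with an edgeR adjusted p of 0.0560, just short of the threshold. Without KO replicate 5, the lowest of the KO libraries and so the nearest to WT, the edgeR adjusted p was 0.0471 (2.99% of all genes called). Without any other single library it was between 0.104 and 0.142. With DESeq2 the adjusted p was 0.0174. It was 0.0389 with upper-quartile factors, where 6.72% of genes were called. Over the alternatives it ran from 0.0155 to 0.583, with a positive log2 fold change in 17 of 17.

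Gimap4, which has been tied to T cell maturation and apoptosis, went the other way. It had 828, 803 and 785 CPM in WT and 696, 681 and 768 CPM in KO. The KO libraries lay below the WT libraries, again with KO replicate 6 nearest to them. Its log2 fold change was -0.17 (SE 0.06, 95% interval -0.30 to -0.05), with an edgeR adjusted p of 0.0970. That p was 0.0416 without KO replicate 6 (2.91% of all genes called) and between 0.155 and 0.299 without any other single library. It was 0.0394 with DESeq2 and between 0.0394 and 0.599 over all alternatives. DESeq2, which called 7.75% of the 15000 genes it adjusted, thus called Gimap6 higher and Gimap1 and Gimap4 lower, as did edgeR without a filter on low counts, where 6.83% of genes were called.

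The 3 remaining members overlapped between the groups. Gimap7, a GTPase that works as a dimer, had 76.3, 78.6 and 75.4 CPM in WT and 57.7, 72.9 and 81.2 CPM in KO. KO replicate 4 lay far below the other 5 libraries, and without it the log2 fold change moved from -0.12 (SE 0.11) to 0.0071. Gimap8, the tandem-domain member, had 481, 476 and 479 CPM in WT, the smallest coefficient of variation of the family in that group, and 516, 468 and 492 CPM in KO. Its log2 fold change was 0.04 (SE 0.05, 95% interval -0.07 to 0.15). Gimap9 had 166, 162 and 159 CPM in WT and 157, 159.6 and 171 CPM in KO, a log2 fold change of 0.0040 (SE 0.06, 95% interval -0.12 to 0.12). The edgeR adjusted p-values were 0.594, 0.734 and 0.979 for Gimap7, Gimap8 and Gimap9.

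**Figure D3:**
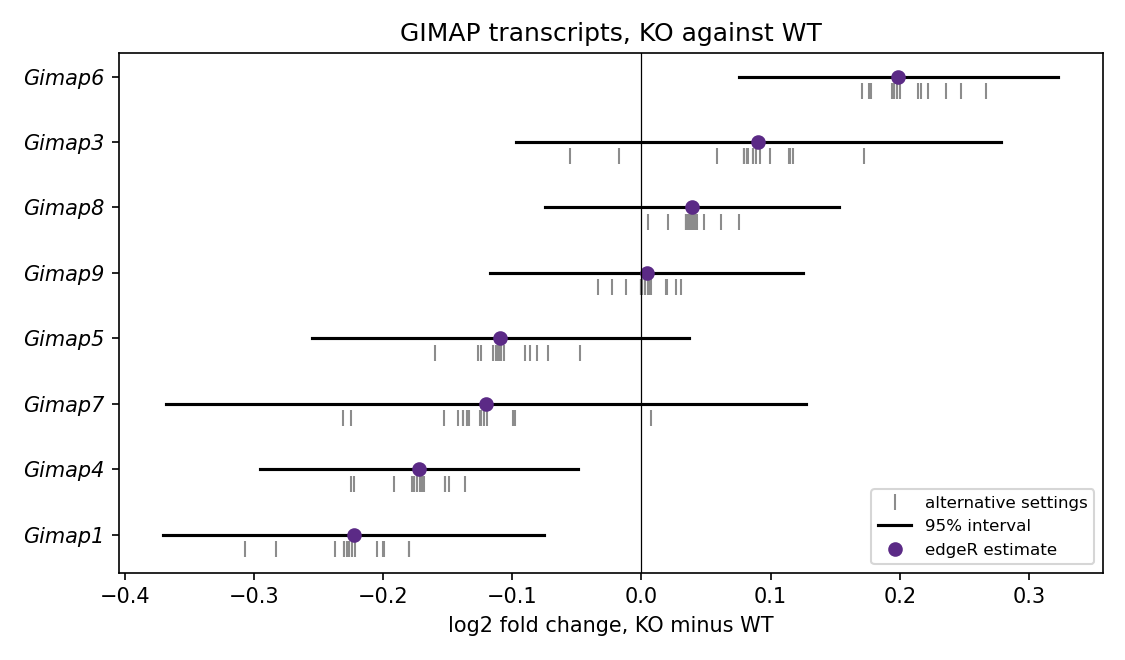
Log2 fold change (KO minus WT) of each GIMAP gene by edgeR (points) with 95% intervals (lines), and the values under 17 alternative settings (ticks). The intervals of Gimap6, Gimap4 and Gimap1 leave out 0 before adjustment, and ticks of Gimap3, Gimap7 and Gimap9 fall on both sides of 0.

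The 3 members with separate ranges can be set against each other within a library, where scaling between libraries cancels. The ratio of Gimap6 to Gimap4 CPM was 0.852, 0.821 and 0.902 in WT replicates 1, 2 and 3 and 1.18, 1.09 and 1.07 in KO replicates 4, 5 and 6. In WT libraries Gimap4 thus had the more reads, and in KO libraries Gimap6 did. The mean ratio was 0.859 ± 0.0410 in WT and 1.11 ± 0.0591 in KO (SD, n = 3 each), 1.29 times higher in KO. The ratio of Gimap6 to Gimap1 was 3.36 ± 0.135 in WT and 4.52 ± 0.392 in KO. The ratio of Gimap1 to Gimap4 was 0.255 ± 0.00216 in WT and 0.246 ± 0.00901 in KO, with overlapping groups. Gimap3 to Gimap5 was 7.24 ± 0.279 in WT and 8.28 ± 0.872 in KO. Gimap6 was above, and Gimap4 and Gimap1 below, all WT libraries in every KO library. The ratios of Gimap6 to Gimap4 and to Gimap1 therefore had to separate the groups. These 4 ratios were chosen after the members' values were seen, so they are a description with no test.

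Measured by library, the members did not shift as a block. Relative to the WT mean, 3, 1 and 5 of the 8 were higher in KO replicates 4, 5 and 6, and the median log2 deviations were -0.06, -0.08 and 0.06. The largest single deviation was Gimap7 in KO replicate 4, at -0.41 on the log2 scale. The coefficient of variation ran from 0.561% to 7.74% over members in WT and from 4.27% to 16.9% in KO, and it was larger in KO for 7 of 8 members, all but Gimap5. The share of all genes with a larger coefficient of variation in KO is not given here, and the members share the same libraries. Whether the spread differed between the groups was not tested.

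**Figure D4:**
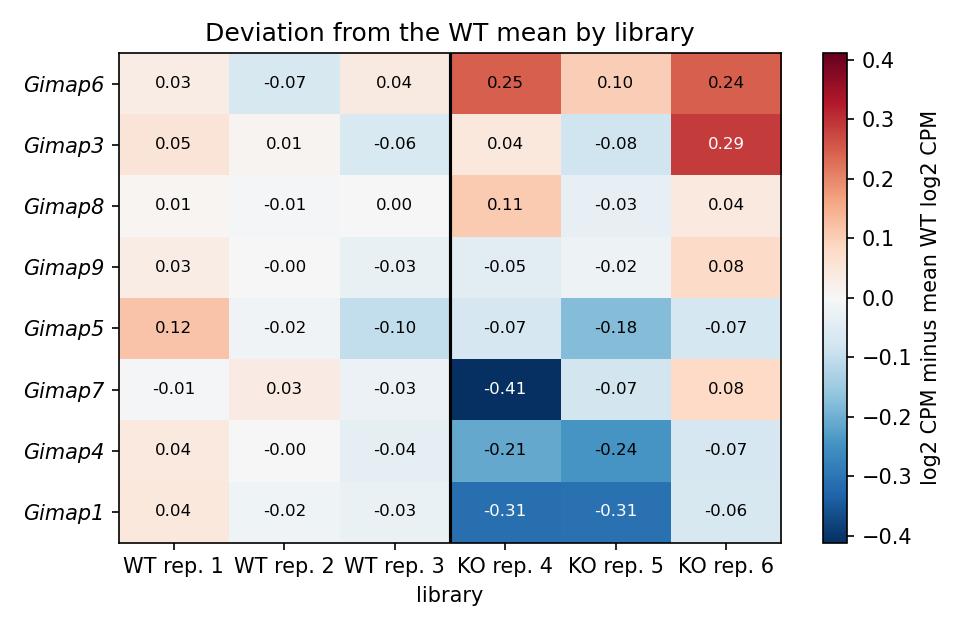
Log2 CPM of each GIMAP gene minus its mean over WT libraries, by library, in color and in digits. KO replicates 4 and 5 are at -0.31 for Gimap1 and at or below -0.21 for Gimap4, while Gimap6 is positive in all 3 KO libraries.

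The summed levels of B cell markers and of CD8 T and NK cell markers were lower in every KO library than in any WT library. Cd72 made up 558 CPM of the B cell sum in WT replicate 2 and 41.2 to 44.9 CPM of it in KO. Ighm, Cr2, Bank1 and Ebf1 overlapped between the groups, and the other B cell markers were lower in every KO library. By the test 1 of 18 B cell markers and 1 of 7 CD8 T and NK cell markers fell, against 2.83% of all genes. Eomes, on the CD8 T and NK list, went the other way, with 3.54 to 4.63 CPM in WT and 5.05 to 6.20 CPM in KO. The direction of both sums was that of Gimap1 and Gimap4 and opposite to Gimap6, and other lymphocytes also express this family. Summed Treg and T lineage markers were higher in every KO library than in any WT library, though Foxp3, Il2ra and Cd4 among them overlapped. The part of these shifts in the GIMAP values was not tested. Among WT libraries replicate 2 had the lowest summed B cell signal. With WT replicate 2 as the only WT library, the log2 fold changes were -0.20 for Gimap1, -0.17 for Gimap4 and 0.27 for Gimap6, with edgeR adjusted p-values of 0.424, 0.492 and 0.228. When a B cell marker score entered as a covariate they were -0.28, -0.22 and 0.24, with adjusted p-values of 0.539, 0.599 and 0.583. Of all genes 1.94% and 0.308% were called in these fits. The score ran from -0.037 to 1.40 in WT and from -1.14 to -0.44 in KO, so it separated the groups, and in this fit score and genotype cannot be fully told apart.

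Reads of close copies could be split between genes. Of the 50-base stretches in Gimap3 transcripts 7.52% also occur in Gimap5, and of those in Gimap5 4.53% occur in Gimap3. These shares count stretches and not reads, so they do not bound the error in either count. Gimap3 had a mean of 532 CPM in WT and Gimap5 73.6 CPM. How reads of shared stretches were counted is not stated. Gimap4, Gimap8 and Gimap9 shared no such stretch with any other annotated gene, and Gimap6 shared 0.170%. Gimap1 shared 35.5%, nearly all with Gimap1os, an antisense transcript across its start. Gimap1os had 20.6, 19.7 and 20.8 CPM in WT and 18.4, 18.6 and 21.1 CPM in KO, and its log2 fold change was -0.07 (SE 0.10) at an edgeR adjusted p of 0.740. Without knowledge of strand use, reads of Gimap1 and Gimap1os over their shared bases cannot be told apart. A read-through locus of the annotation, Gm28053, shares stretches with Gimap7, Gimap1, Gimap5 and Gimap3 and was not analysed here.

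Of 24 tested genes within 1000 kb on either side of the cluster 0 were higher and 2 lower in KO, against 3.68% and 2.83% of all genes, with a median log2 fold change of 0.01. Repin1, a zinc finger gene at -48.2 kb from the cluster edge on the Gimap8 side, had 5.74, 6.97 and 5.92 CPM in WT and 3.003, 4.34 and 4.24 CPM in KO. Its log2 fold change was -0.69 (SE 0.19, edgeR adjusted p = 0.0462), and it lost its call when any one of the 6 libraries was left out, with the highest adjusted p, 0.124, on leaving out KO replicate 4. Igf2bp3, which encodes an RNA-binding protein, lies 314 kb beyond Gimap3 and fell from 5.34 ± 0.836 to 1.17 ± 0.468 CPM (SD, n = 3 each, edgeR adjusted p = 0.000545). The nearest tested neighbours, AI854703 at -13.5 kb and Tmem176b at 63.0 kb, had log2 fold changes of 0.23 (SE 0.18) and 0.08 (SE 0.15) and did not pass.

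**Figure D5:**
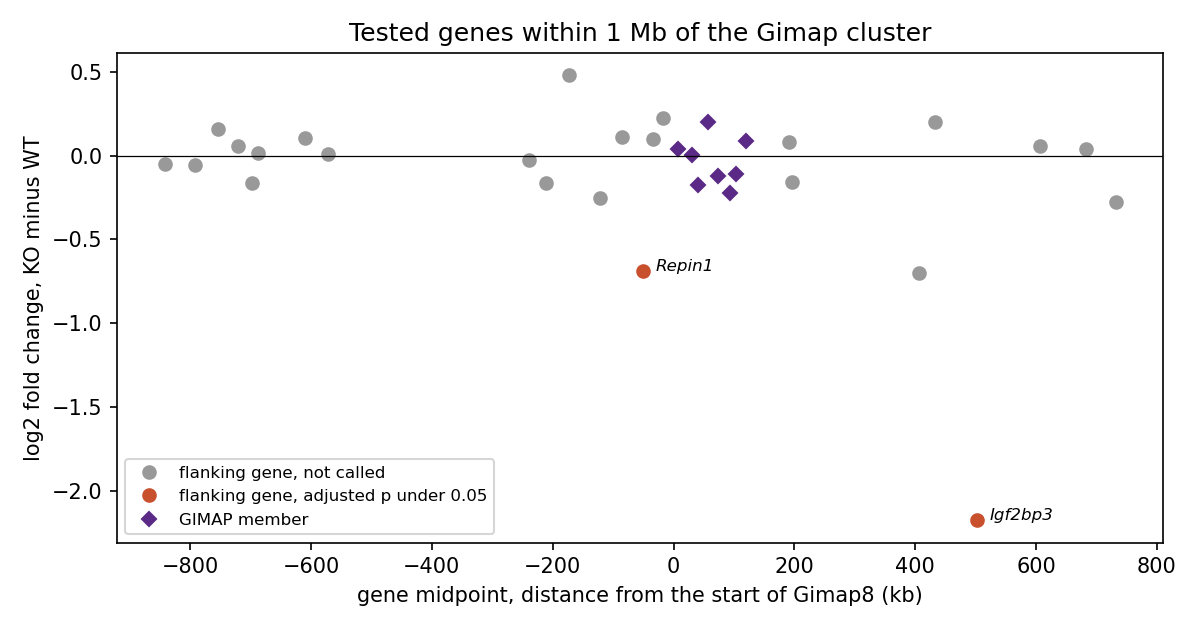
Log2 fold change (KO minus WT) of tested genes within 1 Mb of the cluster against distance from the start of Gimap8 in kb. The 8 GIMAP genes lie between -0.22 and 0.20, and Repin1 and Igf2bp3 are the flanking genes that passed.

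Genes of the processes in which GIMAP proteins are placed were read from the same fit, against the background of 3.68% of all genes called higher and 2.83% called lower. Of 18 autophagy genes 0 rose, 0 fell and 18 did not pass (1 at an unadjusted p under 0.05), with a median log2 fold change of 0.0078. Of 19 genes of GSK3 and mTOR signalling 0 rose, 0 fell and 19 did not pass (3 unadjusted), with a median of -0.07. Of 14 tested BCL-2 family genes 1 rose, 0 fell and 13 did not pass, with a median of -0.02. The one that rose was Pmaip1, which encodes the death-promoting protein NOXA, from 27.4 ± 3.60 to 44.5 ± 4.52 CPM (SD, n = 3 each, edgeR adjusted p = 0.00212).

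Of 16 genes of T cell quiescence and recirculation 4 rose, 3 fell and 9 did not pass, with a median log2 fold change of -0.04. This list, like the others, was written with earlier results of these data known. Its share of calls beside that of all genes is therefore no measure of enrichment. Slfn2, a quiescence gene, fell from 393 ± 27.9 to 309 ± 17.3 CPM (SD, n = 3 each). Tob1, which encodes an anti-proliferative protein, rose from 74.4 ± 5.11 to 92.2 ± 4.97 CPM. Of 19 general T lineage genes 3 rose, 0 fell and 16 did not pass, with a median of 0.11; these were Cd28, Bcl11b and Skap1, at log2 fold changes of 0.38, 0.28 and 0.24. The edgeR adjusted p-values were 0.00673 for Slfn2, 0.0161 for Tob1, 0.00817 for Cd28, 0.0111 for Bcl11b and 0.0331 for Skap1. Over these 5 lists there were 11 calls, with 886 over all genes. Leaving out WT replicate 1 or WT replicate 3 gave 3 calls each, with 460 and 367 over all genes. Leaving out KO replicate 5 or KO replicate 6 gave 6 and 5 calls, with 419 and 408 over all genes. There were 0 once the B cell score, which separates the groups, entered the model, where 42 of all genes were called. In that fit the log2 fold changes were 0.78 for Pmaip1, -0.53 for Slfn2, 0.19 for Tob1, 0.20 for Cd28, 0.24 for Bcl11b and 0.09 for Skap1, with edgeR adjusted p-values from 0.0648 to 0.884. The values for Pmaip1 and Slfn2 were thus larger in size than without the score, and the other 4 were smaller.

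The genes whose levels followed the mean GIMAP profile most closely over the 6 libraries were sought among 8785 protein-coding genes of at least 10 CPM. The closest were Drap1, Cuta, Rnf220, Cope and Rpl18, with root-mean-square differences of 0.0090, 0.016, 0.016, 0.018 and 0.0195 on the log2 scale. The profile itself spanned only 0.17 on that scale, from KO replicate 5 at -0.08 to KO replicate 6 at 0.09. These genes therefore share a nearly flat course over 6 libraries, and none of them passed the test between KO and WT.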

How the data were processed

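RNA was sequenced from 3 WT and 3 KO libraries of sorted Tregs. The submitters' processing notes name bcl2fastq, STAR 2.4.2a, DESeq2 and the build GRCm38. How reads were counted, with which annotation and whether by strand, is not stated in the sources used here. The tables used were: raw counts by Ensembl ID as the authors deposited them, deposited normalized counts by symbol (a signal equal to the counts over 1 factor per library for 99.89% of 9335 genes with over 50 counts, within 1e-06) and FPKM per symbol (normalized counts over 1 constant per gene for 99.98%). The columns of all 3 deposited tables were mapped by title.

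GENCODE M21 (same build) gave symbols and positions for 35412 of 37187 IDs. The count test was edgeR 4.0.16 under R 4.3.3 (TMM factors, filterByExpr with the groups, robust glmQLFit, glmQLFTest, two-sided, Benjamini-Hochberg, threshold 0.05). Standard errors and 95% intervals came from the F statistic and its degrees of freedom. Promoters came from RefSeq's table for GRCm38.p6, which held all 8 members. The test was tried on simulated data. For pairs of libraries of 1 group, chi-square divided by its degrees of freedom ran from 5.16 to 14.6, so no pair was counted as 1 sample.

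The members, lists and alternatives were chosen with earlier results of these data known. Named were the 8 members, Gimap1os, up to 3 called genes of each list (1 of which is not reported here), the nearest and the called neighbours (up to 4), and the 5 genes nearest in profile. Of the listed genes, Ighd and Bcl2a1d had no row of the count table matched through their ID. Alternatives were DESeq2 1.42.0, limma-voom (limma 3.58.1), RLE and upper-quartile factors, no filter, a filter of at least 1 CPM in 3 libraries, limma on log2(normalized count + 1) and on log2(FPKM + pseudocount) with a pseudocount of 1 or 0.1, a B cell marker score as a covariate, and leaving out libraries.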

Additional observations from a re-analysis of the deposited data

How the results depend on the processing

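No paired analysis was possible because the replicate numbers of WT (1 to 3) and KO (4 to 6) are not shared. The GIMAP genes called higher in KO were 0 by edgeR and 1 with DESeq2, upper-quartile factors or no filter on low counts, and those called lower were 0 by edgeR and 2 with DESeq2 or no filter. Leaving out single libraries gave 0 to 1 higher and 0 to 2 lower. Over all genes the 886 calls became 1645 with no filter, 277 on log2(FPKM + 1), 252 on log2(FPKM + 0.1), 42 with the B cell score added, 282 without WT replicates 1 and 3, and 367 to 1364 without single libraries. The 11 context list calls became 15 with no filter, 12 with DESeq2, 3 on log2(FPKM + 1) and 3 on log2(FPKM + 0.1). With the B cell score they became 0, and without single libraries 3 to 12. The 2 flanking calls became 3 with no filter and 0 on log2(FPKM + 0.1). They became 1 with DESeq2, upper-quartile factors, log2(FPKM + 1) or the B cell score, and 1 whichever single library was left out. The cause was not tested.

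Gimap1, Gimap4, Gimap5, Gimap6 and Gimap8 kept their sign in all 17 alternatives. Gimap9 was at -0.00018 under limma on each of the 3 log2 scales and at -0.023 with the B cell score, where Gimap3 was at -0.055 and AI854703 at -0.062. Without single libraries Gimap3 ran from -0.017 to 0.17, Gimap7 from -0.23 to 0.0071, Gimap9 from -0.033 to 0.031 and Tmem176b from -0.070 to 0.20 on the log2 scale. The median over members ran from -0.08 to 0.0059 and the summed ratio from 0.974 to 1.04. The KO over WT fold of the Gimap6 to Gimap4 ratio ran from 1.25 to 1.35. Where WT replicate 2 stood alone, its spread was taken to be that of the KO libraries.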

Other observations

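The gene length behind the deposited FPKM was read from the ratio of normalized count to FPKM, scaled so that the median gene matches its GENCODE M21 exon length. For Gimap4, Gimap6 and Gimap9 this length equalled the exon length, at 1837, 3496 and 1642 bases. For Gimap3 it was 906 bases, which is the coding length with its stop codon, against 2577 bases of annotated exon. For Gimap5 it was 2353 of 4149 bases, for Gimap1 2124 of 3073, for Gimap7 1269 of 2325 and for Gimap8 3654 of 3700. Over 9335 genes 51.4% had a length within 0.5% of the exon length. The sources used here do not say whether Gimap3 reads were counted over the shorter or the longer model, so its place at the top of the family holds for the deposited FPKM only. The comparison of KO with WT within a gene does not use this length.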
